A study of Mus musculus with 6 samples.

Results

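The oligoadenylate synthetase (Oas) genes encode sensors of double-stranded RNA, and 8 of them (Oas1a, Oas1b, Oas1c, Oas1g, Oas2, Oas3, Oasl1 and Oasl2) were followed here by their gene names among the 55401 genes of the deposited table. All 8 passed the filter on low values used for testing, a mean of at least 0.5 FPKM (fragments scaled to the length of the transcript and to the mapped fragments of the library), which 13588 genes in all reached. The cells were mouse neural retinal progenitor cells (mNRPCs), an adult line kept in culture by the laboratory of the study with basic FGF and the Wnt pathway activator CHIR99021. RNA was taken 48 h after lipofection of an siRNA against Ifitm3 (3 libraries, labelled ifitm3 knockdown) or of a control siRNA (3 libraries, labelled control), as the design text of the series describes both groups. The sample labels themselves say control only, and the methods of the study describe RNA of mNRPCs and of knockdown cells without naming a control siRNA at that place, while blank and scramble controls were used in its other assays. The name control siRNA therefore rests on the design text. Ifitm3 encodes an interferon-induced membrane protein that restricts the entry of viruses.

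In textbook terms, an Oas enzyme bound to double-stranded RNA joins ATP into short 2′-5′-linked oligoadenylates, and these set off the cutting of RNA in the cell. The Oas genes are induced by interferon through the transcription factor ISGF3, which binds the interferon-stimulated response element (ISRE). Mice carry a larger Oas1 family than humans. In mice Oas1a and Oas1g make active enzymes. The proteins of Oas1b and Oas1c are not known to make oligoadenylates, and full-length Oas1b protects mice against flaviviruses.

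All 8 genes lie on chromosome 5 (GENCODE vM21, GRCm38), in a pair and in a larger cluster. Oasl2 (ENSMUSG00000029561, 114896936 to 114912234, plus strand) is followed by Oasl1 (ENSMUSG00000041827, 114923240 to 114937915, plus strand). The cluster starts with Oas2 (ENSMUSG00000032690, 120730333 to 120749853, minus strand) and Oas3 (ENSMUSG00000032661, 120753098 to 120777661, minus strand). Oas1c (ENSMUSG00000001166, 120800194 to 120812514, minus strand) and Oas1b (ENSMUSG00000029605, 120812635 to 120824163, plus strand) start back to back with 120 bases between them. Oas1b is annotated as a polymorphic pseudogene, which means that the reference strain carries a broken copy. Oas1g (ENSMUSG00000066861, 120876142 to 120887613, minus strand) and Oas1a (ENSMUSG00000052776, 120896256 to 120907521, minus strand) are neighbors.

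The bases around the start of these genes were searched for the response element named above. RefSeq promoter windows (around each start, build GRCm38.p6) were matched by symbol for 6 of the 8 genes. The ISRE core was searched as GAAA, then NN (any 2 bases), then GAAA, on both strands and with overlapping matches counted. It was found in 4 of the 6 windows, those of Oas1a, Oas1g, Oas3 and Oas1c, in 3.44% of all 32851 windows, and in 33 of the 69 interferon-induced genes of the list described further on that had a window (47.8%). The 120 bases before each of these RefSeq starts follow, 5′ to 3′ on the strand of the gene named, with the matches in capitals. For Oas1a and Oas3 the RefSeq start differs by a few bases from the GENCODE start given above. Positions are counted from the RefSeq starts, and for Oas1b from the GENCODE start. The stretch of Oas1c is the whole interval between Oas1c and Oas1b.
Oas1a, chr5:120907526-120907645, minus strand: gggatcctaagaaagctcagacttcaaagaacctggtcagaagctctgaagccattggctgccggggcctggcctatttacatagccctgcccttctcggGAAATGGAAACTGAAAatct
Oas1g, chr5:120887614-120887733, minus strand: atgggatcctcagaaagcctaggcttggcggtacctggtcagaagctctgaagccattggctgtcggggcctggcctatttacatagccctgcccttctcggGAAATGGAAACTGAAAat
Oas3, chr5:120777660-120777779, minus strand: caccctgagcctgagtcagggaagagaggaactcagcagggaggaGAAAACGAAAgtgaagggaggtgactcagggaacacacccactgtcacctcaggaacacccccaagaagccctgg
Oas1c, chr5:120812515-120812634, minus strand: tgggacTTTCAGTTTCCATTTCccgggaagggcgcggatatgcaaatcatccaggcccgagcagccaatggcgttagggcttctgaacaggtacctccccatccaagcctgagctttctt

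The same run of 16 letters, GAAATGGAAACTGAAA, holds the core in 2 overlapping copies. It stood before Oas1a, before Oas1g and in the interval shared by Oas1c and Oas1b. It spanned bases -20 to -5 before the Oas1a start and bases -18 to -3 before the Oas1g start. In the interval between Oas1c and Oas1b it is written on the Oas1b strand, at bases -22 to -7 from the Oas1b start and -114 to -99 from the Oas1c start. Of all 32851 windows, 7 held this run on either strand, and they belong to 5 genes, Oas1a, Oas1g, Oas1c, Apol9a and Apol9b. The match of Oas3 lay farther out, at bases -75 to -66. No match was found in the windows of Oasl1 and Oasl2, and a window of Oas2 was not used here. The gamma-activated sequence TTCNNNGAA, which reads the same on both strands, was found in the window of Oas1a (bases -98 to -90) in 8.3% of all windows and in 12 of those 69 interferon-induced genes (17.4%). The stretches of Oas1a and Oas1g shown above are 88.5% identical when aligned. A match is a description of the letters and was not tested as a binding site.

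**Figure D1:**
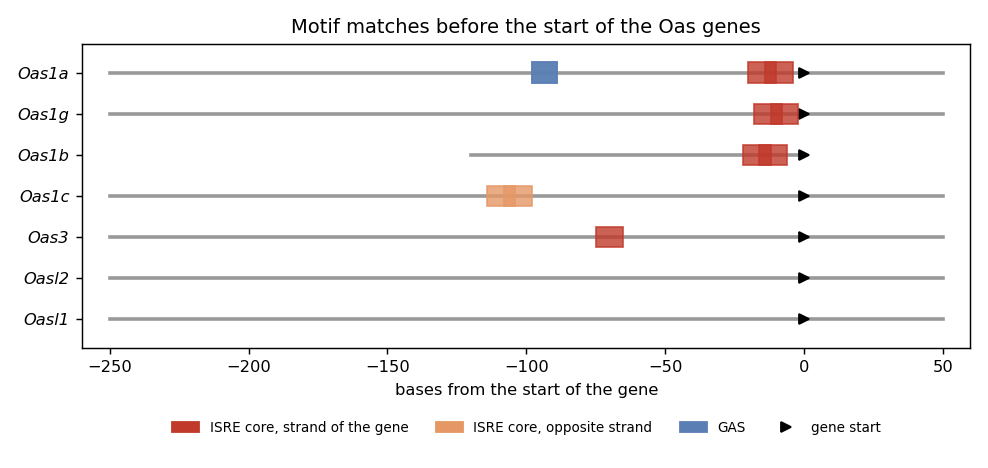
Position of motif matches (boxes) relative to the start of each gene, in bases, for 7 Oas genes; grey lines are the windows searched, and the line of Oas1b covers only the 120 bases it shares with the Oas1c window. The ISRE boxes of Oas1a, Oas1g and Oas1b lie within 22 bases of the start, that of Oas3 lies at -75 to -66, and the windows of Oasl2 and Oasl1 hold none.

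The targeted gene followed its labels. Ifitm3 was at 349.7, 546 and 398 FPKM in the Ifitm3 siRNA libraries and at 3121, 2120 and 2509 FPKM in the control siRNA libraries. Its mean fell to 16.7% of the control mean (log2 fold change -2.59, standard error 0.23; adjusted p = 0.1001 from limma, which misses 0.05). Between 11966 and 12274 genes reached 1 FPKM per library. Read depth is not known for any library, and counting error is therefore not given. On principal component 1 (37.1% of the variance) both replicate 2 libraries were highest (47.6 and 32.0), followed by Ifitm3 siRNA replicate 3 (0.15). The others lay from -33.1 to -22.9. On principal component 2 (22.3% of the variance) the groups separated. The values were -37.8 to -11.7 with the Ifitm3 siRNA and 9.65 to 30.4 with the control siRNA. Of the markers of retinal progenitors, Pax6 (8.39 to 13.7 FPKM) and Sox2 (32.1 to 58.5 FPKM) were present in every library, while Rax and Six6 were listed at 0 in every library. Nothing says that the replicates came from separate cultures, so a p-value describes only how far these libraries spread, and that spread may be technical.

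Oas genes were well above the filter in mNRPCs of both groups. The 8 genes together summed to 254, 252 and 316 FPKM in the Ifitm3 siRNA libraries and to 400, 331 and 267 FPKM in the control siRNA libraries. The sums overlapped between the groups (p = 0.2 by an exact permutation test, two-sided, in which 3 libraries against 3 can give no p under 0.1). As a level per length, Oasl1 and Oasl2 were the most abundant in the Ifitm3 siRNA libraries (70.4 ± 17.9 and 67.3 ± 25.1 FPKM; SD, n = 3), and their ranges overlapped. Oas2, Oas1a, Oas3, Oas1b, Oas1g and Oas1c followed in this order, from 44.5 ± 7.15 FPKM for Oas2 to 6.60 ± 0.586 FPKM for Oas1c (SD, n = 3). Among these neighbors, the ranges of Oasl2 and Oas2 and of Oas3 and Oas1b overlapped. In the control siRNA libraries Oasl2 came first (98.4 ± 19.2 FPKM; SD, n = 3), followed by Oas1a, Oasl1, Oas2, Oas3, Oas1b, Oas1g and Oas1c. There the ranges of Oas1a, Oasl1 and Oas2 overlapped from neighbor to neighbor, and so did those of Oas3, Oas1b and Oas1g.

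**Figure D2:**
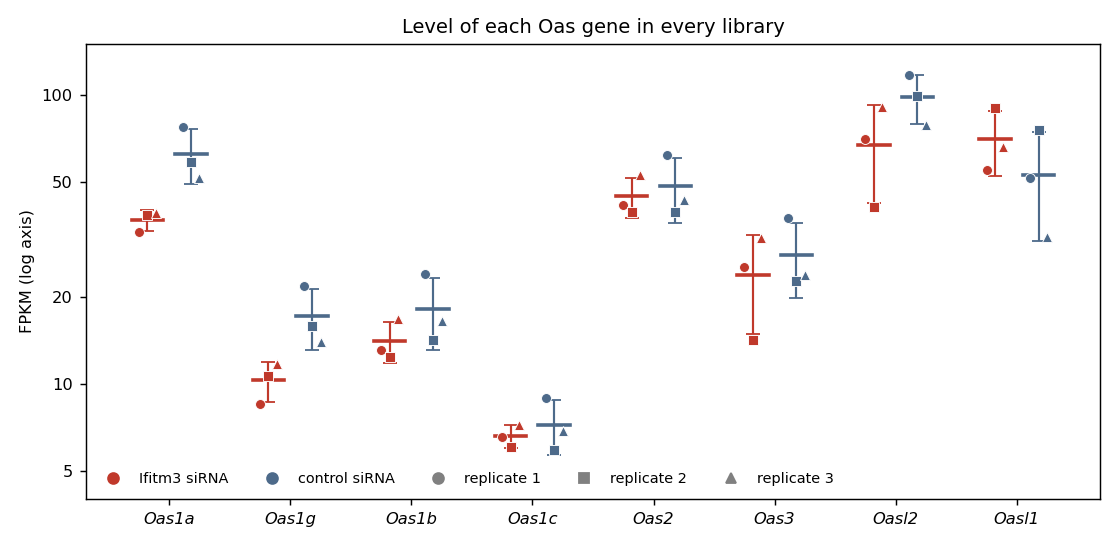
FPKM on a log axis for the 8 Oas genes in each of the 6 libraries, Ifitm3 siRNA in red and control siRNA in blue; horizontal bars are group means, error bars are SD (n = 3), and marker shapes are replicate numbers. The red and blue points separate for Oas1a and Oas1g and overlap for the other 6 genes.

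The question put to each gene was whether its level differed between cells with the Ifitm3 siRNA and cells with the control siRNA. Oas1a and Oas1g, the Oas1 genes with active enzymes, were lower in every Ifitm3 siRNA library than in any control siRNA library, by about the same amount, but neither difference passed adjustment over all genes. The other 6 genes overlapped between the groups. No Oas gene passed an adjusted p of 0.05 (limma, two-sided, Benjamini-Hochberg adjustment; smallest adjusted p = 0.439), a threshold that 0.00736% of all genes tested passed (1 gene, lower). None passed the thresholds of the study, an absolute log2 fold change over 1 with an unadjusted p under 0.05, against 1.43% of all genes (0.5% lower and 0.927% higher). Without adjustment, 2 of the 8 had a p under 0.05, both in the lower direction, against 8.69% of all genes, which divide into 3.37% lower and 5.32% higher. The transcripts of these 2 genes are alike in part, as described below, so the 2 results cannot be counted as independent. The fold change was below 0 for 7 of the 8 genes and above 0 for Oasl1, while 43.2% of all genes were below 0 and 56.8% above. The median log2 fold change of the 8 genes was -0.31, and that of all genes was 0.04. Fold changes are on the scale of log2(FPKM + 0.1), which understates the change of low genes. In bulk RNA, fewer cells that express a gene and less RNA per cell cannot be told apart.

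Oas1a encodes an active 2′-5′-oligoadenylate synthetase. It was at 33.4, 38.4 and 39.1 FPKM in the Ifitm3 siRNA libraries, against 77.5, 58.8 and 51.7 FPKM in the control siRNA libraries. The groups did not overlap, which was so for 15.6% of all genes tested, 5.69% lower and 9.96% higher. The mean with the Ifitm3 siRNA was 59.0% of the control mean. The log2 fold change was -0.74 (standard error 0.17, 95% interval -1.16 to -0.32; unadjusted p = 0.00422 and adjusted p = 0.439 from limma). Whichever library was left out, the log2 fold change stayed between -0.87 and -0.58.

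Oas1g, the neighbor of Oas1a, also encodes an active synthetase. It was at 8.55, 10.6 and 11.7 FPKM in the Ifitm3 siRNA libraries, against 21.8, 15.8 and 13.9 FPKM in the control siRNA libraries, again without overlap. The log2 fold change was -0.72 (standard error 0.21, 95% interval -1.21 to -0.23; unadjusted p = 0.0109 and adjusted p = 0.475 from limma). The level of Oas1g relative to Oas1a hardly varied, at ratios of 0.256, 0.277 and 0.299 with the Ifitm3 siRNA and 0.282, 0.270 and 0.269 with the control siRNA (exact two-sided permutation test, p = 0.8). The transcripts of both genes are much alike. Of the stretches of 150 bases (the read length) in the Oas1a transcript, 32.4% occur letter for letter in Oas1g, and 24.1% of those of Oas1g occur in Oas1a. Reads were not examined, and the sources used here do not state how reads of such stretches were divided between the genes. Each level and their ratio are therefore uncertain. Summed, which was decided after the values were seen, both genes were at 42.0, 49.0 and 50.9 FPKM in the Ifitm3 siRNA libraries, against 99.3, 74.6 and 65.6 FPKM in the control siRNA libraries. No other gene of the 12 Oas family genes shared such a stretch with another.

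Oas1b and Oas1c, which start from the shared interval shown above, did not separate the groups. Oas1b was at 13.1, 12.4 and 16.7 FPKM in the Ifitm3 siRNA libraries, against 23.9, 14.2 and 16.6 FPKM in the control siRNA libraries. Only control replicate 1 lay above the range of the Ifitm3 siRNA libraries. The log2 fold change of Oas1b was -0.35 (95% interval -0.88 to 0.19; adjusted p = 0.683 from limma), and it was -0.13 without control replicate 1. Oas1c was at 6.56, 6.03 and 7.2 FPKM with the Ifitm3 siRNA, against 8.92, 5.92 and 6.85 FPKM with the control siRNA. Its log2 fold change of -0.11 (95% interval -0.54 to 0.31; adjusted p = 0.870 from limma) became 0.05 without control replicate 1. The intervals of both genes include 0 and also changes to either side of it, so that they do not show equal levels.

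Oas2 and Oas3 encode the larger synthetases, built from several copies of the Oas unit, and Oas3 is the main maker of oligoadenylates in human cells. Oas2 was at 41.7, 39.2 and 52.6 FPKM in the Ifitm3 siRNA libraries, against 62.2, 39.4 and 43.3 FPKM in the control siRNA libraries. Its log2 fold change was -0.10 (95% interval -0.60 to 0.40; adjusted p = 0.908 from limma), and 0.09 without control replicate 1. Oas3 was at 25.4, 14.2 and 31.9 FPKM with the Ifitm3 siRNA, against 37.4, 22.8 and 23.7 FPKM with the control siRNA. Ifitm3 siRNA replicate 2 was the lowest of the 6 libraries, and the other Ifitm3 siRNA libraries lay within the range of the control siRNA libraries. The log2 fold change of Oas3 was -0.27 (95% interval -1.07 to 0.53; adjusted p = 0.833 from limma), and 0.06 without Ifitm3 siRNA replicate 2.

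The Oas-like genes, which carry ubiquitin-like domains behind the Oas unit, had fold changes of opposite sign. Oasl2, which in mice makes an active synthetase, was at 70.2, 40.9 and 90.8 FPKM in the Ifitm3 siRNA libraries, against 117, 99.0 and 79.0 FPKM in the control siRNA libraries. Ifitm3 siRNA replicate 3 lay above control replicate 3, so that the groups overlapped. The log2 fold change was -0.60 (standard error 0.31, 95% interval -1.34 to 0.13; adjusted p = 0.611 from limma). With Ifitm3 siRNA replicate 2 left out it was -0.28, and with Ifitm3 siRNA replicate 3 left out -0.86 (unadjusted p = 0.0285 from limma). Oasl1, which lacks synthetase activity and holds back translation of Irf7 in mice, was at 55.1, 90.0 and 66.1 FPKM with the Ifitm3 siRNA, against 51.4, 75.4 and 32.2 FPKM with the control siRNA. In each group the replicate 2 library was the highest. The log2 fold change was 0.46 (standard error 0.33, 95% interval -0.33 to 1.26; adjusted p = 0.712 from limma). The estimate dropped to 0.15 with control replicate 3 left out and reached 0.76 with control replicate 2 left out (unadjusted p = 0.0392 from limma). Oasl1 was at 0.785, 2.20 and 0.728 times the level of Oasl2 in the Ifitm3 siRNA libraries, against 0.438, 0.762 and 0.407 times in the control siRNA libraries (exact two-sided permutation test, p = 0.2).

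**Figure D3:**
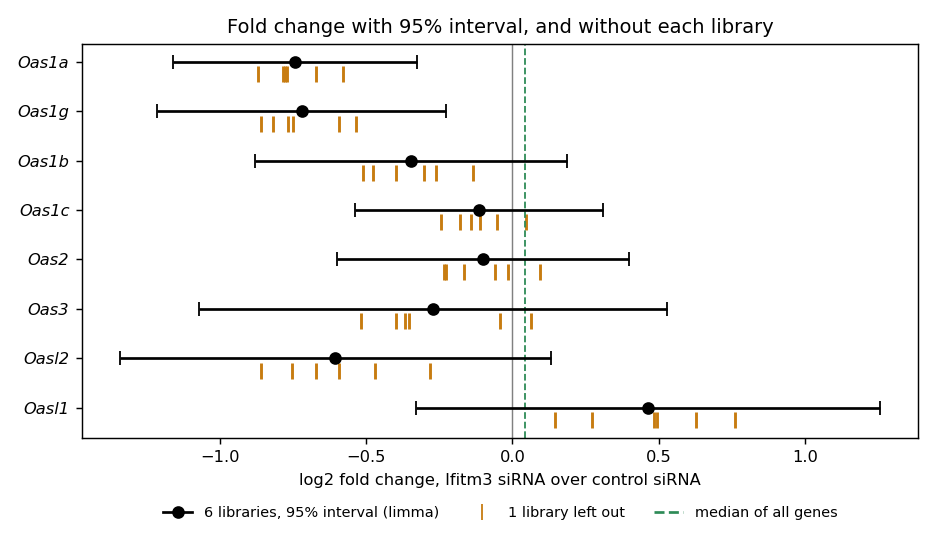
Log2 fold change of Ifitm3 siRNA over control siRNA for the 8 Oas genes on the log2(FPKM + 0.1) scale; black points and bars are the estimate from 6 libraries with its 95% interval (limma), orange ticks are the estimates with 1 library left out, and the dashed line is the median of all genes (0.04). The intervals of Oas1a and Oas1g lie below 0, and the orange ticks of Oas1c, Oas2 and Oas3 fall on both sides of 0.

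Within each group, the libraries differed in their Oas levels. Control replicate 1 was the highest of the 6 libraries for 7 of the 8 genes, Oasl1 being the exception, while it was the highest for 16.0% of all genes tested. Its Oas levels lay 0.38 to 0.73 above the gene means on the log2 scale in these 7 genes. Ifitm3 siRNA replicate 2 was the lowest library for 4 genes (Oas1b, Oas2, Oas3 and Oasl2), with Oas3 at -0.80 and Oasl2 at -0.94 against their means. Oas1a and Oas1g were lowest in Ifitm3 siRNA replicate 1. Without control replicate 1, Oas1a had a log2 fold change of -0.58 (unadjusted p = 0.00969 from limma) and Oas1g of -0.54 (unadjusted p = 0.0291). Without both replicate 2 libraries, the values were -0.81 (unadjusted p = 0.0209) and -0.79 (unadjusted p = 0.0420).

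**Figure D4:**
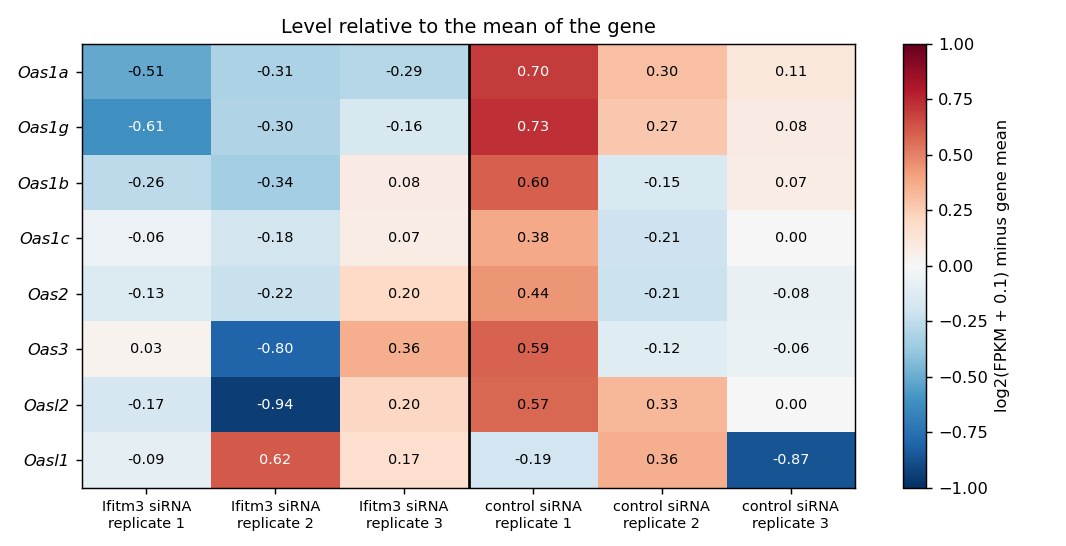
Level of the 8 Oas genes in each library as log2(FPKM + 0.1) minus the mean of the gene over the 6 libraries, with the values printed; Ifitm3 siRNA libraries are left of the black line and control siRNA libraries right of it. Control replicate 1 is above the mean in 7 genes, from 0.38 for Oas1c to 0.73 for Oas1g, and Ifitm3 siRNA replicate 2 is at -0.80 for Oas3 and -0.94 for Oasl2.

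The remaining mouse Oas1 genes were near 0. Oas1e was at 0.31, 0.26 and 0.49 FPKM in the Ifitm3 siRNA libraries and at 1.02, 0.28 and 0.55 FPKM in the control siRNA libraries. Oas1h did not exceed 0.46 FPKM in any library, Oas1d did not exceed 0.1 FPKM and Oas1f did not exceed 0.03 FPKM. None of the 4 reached the filter, and no fold change is given for them.

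Of the other genes of the oligoadenylate pathway, Abce1, which encodes a ribosome recycling factor, was at 35.3, 27.1 and 24.1 FPKM with the Ifitm3 siRNA, against 26.8, 26.1 and 32.1 FPKM with the control siRNA. Its log2 fold change was 0.01 (adjusted p = 0.986 from limma) and changed sign with the scaling, to -0.04 with median-ratio scaling. Pde12, which encodes a mitochondrial phosphodiesterase that degrades 2′-5′ oligoadenylates, was at 3.02, 3.2 and 2.85 FPKM with the Ifitm3 siRNA, against 2.58, 2.81 and 2.82 FPKM with the control siRNA. Its groups did not overlap, with the Ifitm3 siRNA libraries above by a small margin, as was so for 9.96% of all genes tested. Pde12 had a log2 fold change of 0.14 (95% interval -0.18 to 0.45; adjusted p = 0.775 from limma). Akap7, which encodes an enzyme of the same activity in mice, overlapped between the groups, with a log2 fold change of 0.12 (95% interval -0.42 to 0.66; adjusted p = 0.897 from limma). None of the 3 tested genes of this list passed an unadjusted p of 0.05, against 8.69% of all genes tested.

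Interferon genes themselves were scarcely detected. Ifnb1, which encodes interferon beta, was at 0.39, 1.87 and 0.36 FPKM in the Ifitm3 siRNA libraries and at 1.00, 0.81 and 0.23 FPKM in the control siRNA libraries. It was the only one of 21 listed interferon genes that reached the filter (log2 fold change 0.14, standard error 0.72; adjusted p = 0.963 from limma). Summed over the list, interferon genes were at 0.64, 2.22 and 0.72 FPKM with the Ifitm3 siRNA and at 1.2, 1.38 and 0.66 FPKM with the control siRNA. Markers of microglia and macrophages, which also express Oas genes, were near 0. Their summed level was 0.14 to 1.13 FPKM in the Ifitm3 siRNA libraries and 0.21 to 1.75 FPKM in the control siRNA libraries over 12 genes, with C1qa and C1qb at 0 in every library. The 6 endothelial markers summed to at most 0.23 FPKM and the 6 photoreceptor markers to at most 0.18 FPKM in any library. The 6 fibroblast markers summed to 74.4 to 148 FPKM in the Ifitm3 siRNA libraries and 115 to 170 FPKM in the control siRNA libraries. Col3a1 made up nearly the whole sum. Pdgfra was at 1.1, 2.32 and 1.2 FPKM with the Ifitm3 siRNA, against 1.1, 1.68 and 0.75 FPKM with the control siRNA. Col1a1, Col1a2, Dcn and Lum were below 0.4 FPKM. The part of such cells in the Oas levels was not tested.

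Of 20 genes of interferon signaling, 19 were tested, and the genes with the smallest p went in both directions. Socs3, a feedback inhibitor of cytokine signaling, had a log2 fold change of -0.79, the kinase gene Tyk2 of 0.64 and the interferon gamma receptor gene Ifngr2 of 0.48, none with an adjusted p under 0.05. Without adjustment, p was under 0.05 for 4 genes, of which 2 were lower and 2 higher. Over all genes tested that share was 8.69%, with 3.37% lower and 5.32% higher. The median of the list was -0.04. Among subunits of ISGF3, named after their values were seen, the log2 fold changes were -0.50 for Stat2 (adjusted p = 0.693) and -0.10 for Irf9 (adjusted p = 0.913).

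Among 82 tested genes induced by interferon other than Oas and Ifitm genes, 65 had a fold change below 0 and 17 above 0. Of all genes tested, 43.2% were below 0 and 56.8% above. The median log2 fold change of this list was -0.22, and that of all genes was 0.04. Tor3a, an interferon-induced torsin gene, had a log2 fold change of -0.83, Parp9 of -0.56 and Ifit3 of -0.95 (limma, adjusted p = 0.386, 0.460 and 0.471). None of the 82 passed an adjusted p of 0.05. Of all genes tested, 3.37% were lower and 5.32% higher with an unadjusted p under 0.05. In this list, p was under 0.05 for 15 lower genes and 1 higher gene. The higher gene was the chemokine gene Cxcl10 (log2 fold change 0.72), named after its value was seen. The number of lower genes dropped to 5 when Ifitm3 siRNA replicate 1 was left out, to 6 when Ifitm3 siRNA replicate 2 was, and to 5 when control replicate 1 was. Control replicate 1 was the highest library for 69.5% of these 82 genes, for 7 of the 8 Oas genes and for 16.0% of all genes tested. An unadjusted p of 0.05 was passed by 8.69% of all genes tested. It was passed by none of 10 listed genes of other nucleic acid sensors, their adapters and the RNA-editing enzyme ADAR1 (median -0.18). The smallest p belonged to Tlr3 (log2 fold change -0.99), Ddx58, which encodes RIG-I (-0.31), Adar, the gene of ADAR1 (-0.32) and Ifih1, which encodes MDA5 (0.26).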

How the data were processed

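RNA-seq of mNRPCs covered 3 Ifitm3 siRNA and 3 control siRNA libraries, grouped by their titles; the protocol selects polyadenylated RNA and marks the strand. The deposited values are FPKM for each gene in each library, rounded to 2 decimals by the authors; no header states the unit, which follows from the quantification tool and the values. Tools named in the submitters' processing notes are HISAT2 2.0.4, StringTie 1.3.4d and cutadapt 1.9, with the build hg18, which is human, although 99.5% of the identifiers are mouse identifiers of GENCODE vM21. The annotation and the strand setting of the counting are not given in the sources used here. Gene positions, transcripts and promoter windows were taken from GENCODE vM21 (GRCm38) and RefSeq (GRCm38.p6).

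The Ifitm3 siRNA libraries were set against the control siRNA libraries with limma 3.58.1 (R 4.3.3; condition only, mean-variance trend, two-sided) on log2(FPKM + 0.1) for genes whose mean reached 0.5 FPKM, with Benjamini-Hochberg adjustment over all of them; the fit was tested on simulated data. For the RNA-seq comparison the paper states thresholds, and its methods do not say which test gave the p. Sequences were searched and aligned with Python 3.11.15 and Biopython 1.88. The genes and lists were chosen with earlier results of these data known. Genes named are Ifitm3, the 8 Oas genes, the other Oas1 genes, Abce1, Pde12 and Akap7, per list those past the study thresholds and up to 4 with the smallest p, and per Oas gene the 3 genes with the nearest profile; a symbol with several identifiers is represented by the highest. The alternatives were other pseudocounts (1 and 0.01), filters, scalings, no trend, a replicate block, and libraries left out; summing Oas1a and Oas1g was chosen after seeing the data. Some genes that this rule names are not reported here.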

Additional observations from a re-analysis of the deposited data

How the results depend on the processing

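No Oas gene passed an adjusted p of 0.05 or the thresholds of the study under any of the 15 alternatives run, and 2 to 3 had an unadjusted p under 0.05 when a library was left out. Over the alternatives the adjusted p of Oas1a ranged from 0.356 to 0.849 and that of Oas1g from 0.377 to 0.920, and the unadjusted p reached at most 0.0209 and 0.0420. Summed, a setting chosen after seeing the data, both had a log2 fold change of -0.74 (unadjusted p = 0.00522). With 1 library left out, the log2 fold change ran from -0.25 to 0.046 for Oas1c, from -0.23 to 0.095 for Oas2, from -0.52 to 0.063 for Oas3, from -0.14 to 0.13 for Abce1 and from -0.076 to 0.32 for Akap7. The value of Abce1 was -0.044 with median-ratio scaling and -0.0083 without both replicate 2 libraries. The count of all genes past the study thresholds was 194, against 80 with a pseudocount of 1, 413 with no filter, 306 without both replicate 2 libraries and 166 to 352 with 1 library left out. The share of higher genes among them, 64.9% at first, was 55.0% with median-ratio scaling and 54.6% with quantile normalization. The 1 gene past an adjusted p of 0.05 became 0 without both replicate 2 libraries and 0 to 3 with 1 library left out. Lower genes at an unadjusted p under 0.05 numbered 9 of the interferon-induced list without the trend, 7 without both replicate 2 libraries and 5 to 18 with 1 library left out, against 15. For interferon signaling they numbered 1 without both replicate 2 libraries and 1 to 2 with 1 left out, against 2, and for the sensors 0 to 1, against 0. The causes were not tested. Replicate numbers are shared between the groups, and the deviations of same-numbered libraries correlated at 0.07, 0.43 and 0.03. The value of 0.43, for number 2, was the highest of any pair of libraries across the groups. With 3 libraries per group, these values cannot decide whether the numbers pair the libraries. Fitted with a block for the replicate number, 0 genes passed an adjusted p of 0.05, 1 gene of interferon signaling was lower at an unadjusted p under 0.05, 245 genes passed the study thresholds, and Oas1a and Oas1g had unadjusted p of 0.0106 and 0.0280. None of the libraries numbered 1 or 3 correlated best with its own number. Number 1 of the Ifitm3 siRNA and number 3 of the control siRNA correlated at 0.36, and number 3 of the Ifitm3 siRNA and number 1 of the control siRNA at 0.12. The unknown number of reads limits what can be said of genes below 1 FPKM.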

Other observations

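The genes whose profile over the 6 libraries lay nearest to that of each Oas gene were taken from all 13588 genes tested, by the mean absolute difference of log2(FPKM + 0.1) centred on each gene. This is a description, and nearness to 1 profile over 6 libraries is found by search among many genes. Oas1g, whose transcripts share stretches of read length with Oas1a, was nearest to Oas1a (0.05, against a median of 0.43 over all genes). Stard10 (0.08) and the interferon-induced gene Tor3a (0.09) followed. For Oas1g, Stard10 (0.06) and Mmp2 (0.08) came after Oas1a. The genes nearest to Oas1b were Nlrc5, a regulator of MHC class I genes (0.05), Myorg (0.05) and Tram2 (0.06). Those nearest to Oas1c were Oscp1 (0.03), Dennd1a (0.04) and Gm14038 (0.04), and those nearest to Oas3 were Med9os (0.07), Ldb2 (0.08) and Rps2-ps13 (0.09). For Oas2 the nearest were Keap1 (0.03), Ogfr (0.04) and Samd9l, an antiviral gene induced by interferon (0.05). Oasl2 had no profile as near, with Bmp6 (0.12), the interferon-induced gene Ifi44 (0.13) and Gm12033 (0.14) first. For Oasl1, the gene with the opposite sign, Rsf1 (0.06), Lgals4 (0.06) and Dnajb9, a chaperone gene of the endoplasmic reticulum (0.08), came first.

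Apol9a and Apol9b, the genes besides the Oas1 genes whose promoter windows hold the run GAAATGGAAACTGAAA, are interferon-induced apolipoprotein L genes. Apol9a was at 35.9, 50.2 and 42.4 FPKM in the Ifitm3 siRNA libraries, against 44.4, 46.6 and 36.9 FPKM in the control siRNA libraries. Apol9b was at 38.8, 71.9 and 41.8 FPKM in the Ifitm3 siRNA libraries, against 27.7, 54.7 and 24.5 FPKM in the control siRNA libraries. Their log2 fold changes were 0.00 (standard error 0.17; adjusted p = 0.998 from limma) and 0.55 (standard error 0.37; adjusted p = 0.694). Among the Oas1 genes with the run before their start, the values were -0.74 for Oas1a, -0.72 for Oas1g, -0.35 for Oas1b and -0.11 for Oas1c. Apol9a and Apol9b were named after their values were seen. Oas1c was at 0.5, 0.486 and 0.431 times the level of Oas1b in the Ifitm3 siRNA libraries, against 0.373, 0.418 and 0.414 times in the control siRNA libraries (p = 0.1 by an exact permutation test, two-sided, which is the lowest p possible here). Oasl2 made up 27.6%, 16.2% and 28.7% of the summed Oas level in the Ifitm3 siRNA libraries, against 29.3%, 29.9% and 29.5% in the control siRNA libraries. Oas1a made up 13.2%, 15.2% and 12.4% of it, against 19.3%, 17.7% and 19.3%. These ratios and shares were formed after the levels had been seen.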
